A study of Mus musculus with 6 samples.

Results

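The genes described here are those of the ATF4 amino acid response together with the cytosolic tRNA synthetases, in natural killer (NK) cells, lymphocytes of innate immunity that destroy virus-infected or malignant cells. Of 43 named genes, matched by symbol, 37 were among the 11717 genes listed in the deposited table, and all 37 passed the filter on low values. Nupr1, Trib3, Chac1, Vldlr, Slc7a11 and Pycr1 were not listed and are not analysed here. RNA was sequenced from NK cells purified from spleens of C57BL/6 mice that all carried an IL-15 transgene, IL-15 being a cytokine on which NK cells depend to live and divide. The tested mice carried, in addition, a conditional knockout (cKO) labelled as directed at Xbp1s, and the others were labelled WT, with 3 libraries in each group. Xbp1s is the spliced form of a transcription factor that drives 1 arm of the response to misfolded protein in the endoplasmic reticulum (ER). The deleting Cre line, the promoter of the transgene, and the sex and age of the mice are not stated in the labels.

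ATF4 is a transcription factor whose protein is made when the initiation factor eIF2alpha is phosphorylated, as happens under ER stress (by the kinase PERK) or amino acid shortage (by the kinase GCN2). It binds composite C/EBP-ATF response elements with C/EBP partners and raises genes of amino acid transport, amino acid synthesis and tRNA charging, while CHOP, TRIB3 and GADD34 act downstream or as feedback. The growth kinase mTORC1 also raises ATF4 targets in dividing lymphocytes without stress. Since PERK is parallel to the IRE1-XBP1 arm, the comparison asks whether these transcripts differ in NK cells labelled as Xbp1s cKO.

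The response element is shown first, because it is the kind of element that ATF4 is known to bind. RefSeq promoter windows (GRCm38.p6, 250 bases before to 50 bases after a gene's start) were found for 32 of the 43 genes, 26 of them listed. The core searched was TGATGNAA on either strand, which reads TTNCATCA in reverse. It was present in 13 of 32 member windows (40.6%), against 4.51% of all 27025 genes with a window. Among listed members 7 of 26 held it, and among the members that were not listed all 6 did. The members were chosen as genes of this response, so the contrast with all genes describes the list and is no test. The gene of asparagine synthetase, Asns, is the textbook case. Its 250 bases before the start (minus strand of chr6:7693210-7693459), with the core in capitals 23 bases before the start, read as follows.
Asns: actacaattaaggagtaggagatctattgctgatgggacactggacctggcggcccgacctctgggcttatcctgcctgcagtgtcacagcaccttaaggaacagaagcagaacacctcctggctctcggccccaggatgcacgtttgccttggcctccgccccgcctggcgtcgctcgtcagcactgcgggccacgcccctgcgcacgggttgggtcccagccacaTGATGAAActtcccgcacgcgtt

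The windows of 4 synthetase genes with the core, and of Atf3, are set beside it at 30 bases each, on the gene's strand with the core in capitals. They show that the core stood in both orientations and that its first base lay between positions -110 and 8 relative to the start.
Gars (chr6:55037960-55037989): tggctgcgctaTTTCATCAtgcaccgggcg
Iars (chr13:49682126-49682155): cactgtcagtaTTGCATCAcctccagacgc
Tars (chr15:11399655-11399684): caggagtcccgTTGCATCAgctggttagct
Yars (chr4:129189895-129189924): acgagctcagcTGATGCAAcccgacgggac
Atf3 (chr1:191183425-191183454): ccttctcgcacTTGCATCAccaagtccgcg

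Further motifs were searched on either strand. The cAMP response element TGACGTCA was found in 1 member window, that of Ppp1r15a (3.12%, against 2.03% of all genes). The short core of the ER stress response element, CCACG, was found in 24 of 32 (75%, against 35.5%). The XBP1s element TGACGTGG, which contains the reverse of CCACG, was found in 0 of 32 (against 0.714%). A match is a description of these letters in these windows, and no match says nothing about binding of a factor.

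The table gives CPM (for each gene, its reads per 1000000 of the library's reads on listed genes), and 26297292 to 29366756 whole reads were recovered per library. As a check of the labels, Xbp1 stood at 35.1, 33.4 and 39.7 CPM in cKO libraries 1, 2 and 3, against 42.9, 61.4 and 63.5 CPM in WT libraries 1, 2 and 3. The groups did not overlap, but the difference did not pass the test over all genes (limma, adjusted p = 1.0), and gene-level reads do not separate the spliced form. All 11 NK cell markers listed of 12 were detected in every library. Their mean was higher in cKO for 1 of the 11, and they had sums of 10924 to 11656 CPM in cKO and 11470 to 12928 CPM in WT. B cell markers were detected too, at sums of 851 to 1953 CPM in cKO and 561 to 1262 CPM in WT, and all 12 had a higher mean in cKO. Macrophage and monocyte markers summed to 160 to 337 CPM in cKO and 111 to 194 CPM in WT over the 6 of 12 listed. Their part in the results below was not tested, and in bulk RNA fewer cells of a type and less RNA per cell cannot be told apart.

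No member passed the test between the genotypes. On the log2(CPM + 0.5) scale, 19 of the 37 members had a higher mean in cKO and 18 a lower one. Their median log2 fold change was 0.00022, against a median of 0.0087 over all 11343 genes tested. Members higher in cKO were thus 51.4%, beside 55.5% of all genes. With limma, 0 members passed an adjusted p of 0.05, and 0 had an unadjusted p under 0.05, where 0% and 1.17% of all genes did. With edgeR (quasi-likelihood, recovered reads) 0 members passed the adjusted and 0 the unadjusted threshold, beside 0% and 1.28% of all genes. In DESeq2 0 members passed either, beside 0.0529% and 1.37% of all genes. The smallest unadjusted p of a member, that of Slc3a2 with each tool, was 0.217 in limma, 0.144 in edgeR and 0.178 in DESeq2. The 95% confidence interval lay within 1.5-fold in either direction for 32 of 37 members, beside 84.2% of all genes tested. The exceptions were Atf3, Cebpb, Ddit4, Slc7a5 and Asns, and 4 of these 5, all but Cebpb, were the members whose highest library was over 2 times the lowest, as in 8.6% of all genes tested. The labels do not tie the 3 libraries of a group to different animals, so the p-values here reflect spread among libraries that may be technical.

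**Figure D1:**
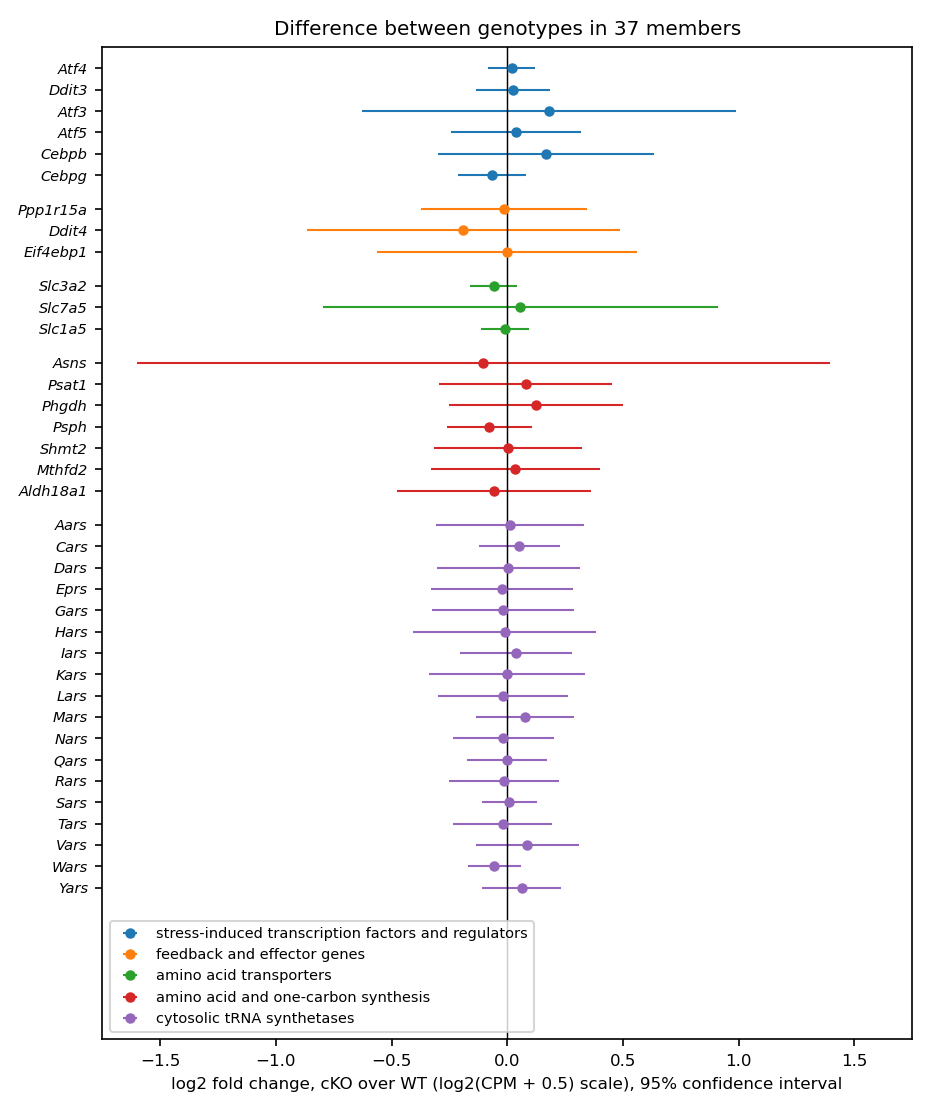
Log2 fold change of cKO over WT on the log2(CPM + 0.5) scale (x axis) for the 37 listed members (y axis), coloured by role, with 95% confidence intervals from limma on 3 libraries per group. Every interval crosses 0, and that of Asns is the widest, at -1.60 to 1.39.

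Among the transcription factors, Atf4 itself was nearly constant. Atf4 (ENSMUSG00000042406.8, build mm10, plus strand of chromosome 15, 80255184 to 80257541) stood at 145, 144 and 141 CPM in cKO libraries 1, 2 and 3, against 141, 138 and 145 CPM in WT libraries 1, 2 and 3. The groups overlapped within a span of 1.05-fold from the lowest to the highest library, and 98.8% of all genes tested had a wider span. The log2 fold change of 0.020 had a 95% confidence interval of -0.081 to 0.12 (limma, adjusted p = 1.0), which leaves a difference of -5.46% to 8.73%. ATF4 protein is set mainly by translation, which RNA levels do not show. Per kilobase of exon Atf4 was also the most abundant member, at 60.9 ± 0.820 CPM per kb in cKO and 60.04 ± 1.46 CPM per kb in WT (SD, n = 3 each). Only 4.86% of listed genes stood higher on this scale.

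The row named Ddit3, the symbol of the gene of CHOP, was likewise flat, at 27.3, 25.3 and 27.2 CPM in cKO and 26.7, 25.5 and 26.2 CPM in WT (log2 fold change 0.024, 95% confidence interval -0.14 to 0.18, limma adjusted p = 1.0). This row carries ENSMUSG00000116429.1, a separate gene model of the same name at chromosome 10, 127290829 to 127293753, that shares exons with another Ddit3 model. Reads of the other Ddit3 model are not analysed here, so these values may not stand for the CHOP transcript as a whole. Cebpg encodes a C/EBP partner of ATF4. It was at 57.9, 58.0 and 56.4 CPM in cKO and 64.2, 56.5 and 60.1 CPM in WT, with overlapping groups and a log2 fold change of -0.067 (limma, adjusted p = 1.0). Cebpb, whose product is another such partner and is also abundant in myeloid cells, was at 8.99, 5.23 and 7.06 CPM in cKO and 5.63, 6.12 and 6.62 CPM in WT. Its log2 fold change of 0.17 was carried by cKO library 1, without which it was -0.0060. The same library had the highest sum of macrophage and monocyte markers, 337 CPM, and any link to Cebpb was not tested. Atf5, a related factor of mitochondrial stress, ranged from 5.24 to 6.24 CPM in cKO and from 5.31 to 5.89 CPM in WT. Atf3, a stress-induced repressor, was the lowest member per kilobase, with 31 to 78 reads per library. It was at 1.70, 1.55 and 2.75 CPM in cKO and 1.12, 1.29 and 2.97 CPM in WT, so that library 3 was the highest of each group.

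Of the 3 feedback and effector genes listed, Ppp1r15a and Ddit4 were also highest in libraries 3, and Eif4ebp1 was not. Ppp1r15a encodes GADD34, the phosphatase subunit that reverses eIF2alpha phosphorylation. It was at 24.6, 24.4 and 32.0 CPM in cKO, against 25.7, 24.0 and 32.1 CPM in WT, with a log2 fold change of -0.014 (limma, adjusted p = 1.0). The spread within each group was thus larger than the difference between them. Ddit4 encodes REDD1, a stress-induced inhibitor of mTORC1. It was at 39.2, 37.2 and 45.7 CPM in cKO, against 35.2, 37.5 and 75.4 CPM in WT. WT library 3 stood apart from the other 5 libraries, and the log2 fold change of -0.19 became 0.16 without it. Library cKO 3 and library WT 3 were the highest pair in Ppp1r15a, Ddit4, Atf3 and Atf5, 4 of 37 members, beside 20.5% of all genes tested. Eif4ebp1, whose product 4E-BP1 restrains translation downstream of mTORC1, had another order. It was at 14.1, 20.4 and 12.7 CPM in cKO and 20.5, 14.1 and 12.6 CPM in WT, highest in WT library 1 and cKO library 2.

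Among amino acid transporters, Slc3a2 and Slc1a5 hardly varied while Slc7a5 varied with the library. Slc3a2 (ENSMUSG00000010095.13, minus strand of chromosome 19, 8706882 to 8723369) encodes the CD98 heavy chain, which carries LAT1 to the cell surface. It was at 91.2, 92.8 and 88.8 CPM in cKO libraries 1, 2 and 3, against 95.7, 94.3 and 94.1 CPM in WT libraries 1, 2 and 3. The highest cKO library was below the lowest WT library, a log2 fold change of -0.059 (95% confidence interval -0.16 to 0.044), or -3.99%. This did not pass (limma, adjusted p = 1.0). Permuting the library labels exactly (two-sided) gave p = 0.1, its lower limit with 3 libraries per group. Slc7a5 encodes LAT1, the importer of leucine and other large neutral amino acids. It was at 30.1, 45.6 and 23.9 CPM in cKO and 51.1, 25.96 and 21.9 CPM in WT, a span of 2.33-fold over the 6 libraries. The group means of 33.2 ± 11.2 CPM in cKO and 33.0 ± 15.8 CPM in WT (SD, n = 3 each) did not differ beyond that spread (limma, adjusted p = 1.0). Slc1a5, the gene of the glutamine transporter ASCT2, spanned only 148 to 153 CPM in cKO and 149 to 156 CPM in WT.

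**Figure D2:**
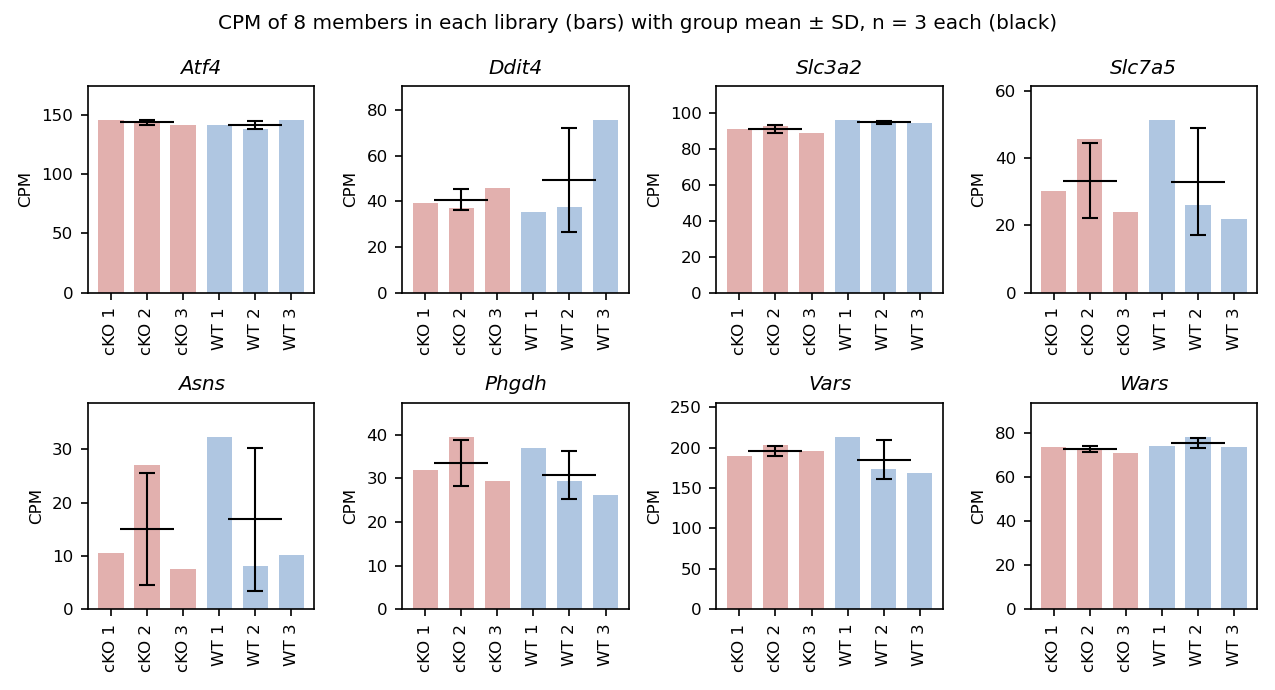
CPM (y axis, from 0) of 8 members in each of the 6 libraries (x axis), with cKO bars in red, WT bars in blue, and the group mean ± SD (n = 3 each) in black. Atf4, Slc3a2 and Wars are level, Asns and Slc7a5 are highest in WT library 1 and cKO library 2, and Ddit4 is highest in WT library 3.

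The enzymes of amino acid and one-carbon synthesis varied between libraries of the same genotype, and 0 of the 7 passed the test between genotypes. Asns (ENSMUSG00000029752.12, minus strand of chromosome 6, 7675169 to 7693254) makes asparagine from aspartate. It was at 10.5, 27.1 and 7.51 CPM in cKO libraries 1, 2 and 3, against 32.3, 8.15 and 10.2 CPM in WT libraries 1, 2 and 3. One library of each genotype thus stood well above the other 4, a span of 4.30-fold, and only 1.53% of all genes tested had a wider one. The log2 fold change of -0.10 had a 95% confidence interval of -1.60 to 1.39 (limma, adjusted p = 1.0). It was -0.62 without cKO library 2 and 0.49 without WT library 1, so its value rests on single libraries. The wide interval leaves the size and direction of any difference in Asns undetermined.

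Phgdh, Psat1 and Psph encode the consecutive enzymes of serine synthesis. Phgdh was at 31.8, 39.5 and 29.4 CPM in cKO and 36.9, 29.4 and 26.2 CPM in WT, with a log2 fold change of 0.12 (limma, adjusted p = 1.0). Psat1 was at 34.0, 43.0 and 31.7 CPM in cKO and 41.0, 31.9 and 30.0 CPM in WT, with the same order of libraries at the top. Psph did not share it, and averaged 18.2 ± 0.832 CPM in cKO and 19.2 ± 0.734 CPM in WT (SD, n = 3 each), with overlapping groups (log2 fold change -0.077, limma adjusted p = 1.0). Shmt2 encodes the mitochondrial enzyme that takes a 1-carbon unit from serine. It was at 65.1, 76.6 and 57.7 CPM in cKO and 76.6, 64.0 and 58.5 CPM in WT. Its log2 fold change was 0.0021, or 0.149%. Mthfd2, the next enzyme of mitochondrial folate metabolism, ranged from 10.6 to 13.2 CPM in cKO and from 10.2 to 14.1 CPM in WT. Aldh18a1, which starts proline synthesis, was at 82.5, 107 and 76.6 CPM in cKO and 115, 82.6 and 80.3 CPM in WT. In 6 of these 7 genes, all but Psph, the highest pair of libraries was cKO 2 and WT 1.

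All 18 cytosolic tRNA synthetases, which join amino acids to their tRNAs, were expressed, at means of 38.5 CPM (Cars) to 190 CPM (Vars) over the 6 libraries. Of these, 9 had a higher and 9 a lower mean in cKO, and the median log2 fold change was -0.00037. The fold changes ran from -0.055 (Wars) to 0.088 (Vars), and every 95% confidence interval lay within 1.5-fold either way. For comparison, the role groups of transcription factors (5 of 6 higher), feedback genes (0 of 3), transporters (1 of 3) and synthesis enzymes (4 of 7) had medians of 0.031, -0.014, -0.0095 and 0.0021.

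Vars (ENSMUSG00000007029.16, plus strand of chromosome 17, 35000987 to 35016322), the valyl-tRNA synthetase, had the largest positive difference among synthetases. It was at 189, 203 and 195 CPM in cKO libraries 1, 2 and 3, against 213, 174 and 168 CPM in WT libraries 1, 2 and 3. WT library 1 lay above all cKO libraries and the other WT libraries lay below them, so the groups overlapped (log2 fold change 0.088, 95% confidence interval -0.14 to 0.31, limma adjusted p = 1.0). Without WT library 1 the log2 fold change was 0.19 (limma, unadjusted p = 0.0118, adjusted p = 0.991), and without WT library 3 it was 0.023. Without WT library 1 the unadjusted p of Mars was 0.0383 as well (limma, adjusted p = 0.991), and no other member was under 0.05. These 2 of 37 members stood beside 267 of all 11343 genes tested in that fit, against 133 genes with all 6 libraries. Wars (ENSMUSG00000021266.16, minus strand of chromosome 12, 108860030 to 108894174), the tryptophanyl-tRNA synthetase, is also known as an interferon-gamma-induced gene. It was at 73.6, 73.2 and 71.2 CPM in cKO, against 74.4, 78.3 and 73.9 CPM in WT. Its groups did not overlap either, with a log2 fold change of -0.055 (95% confidence interval -0.17 to 0.060) that did not pass (limma, adjusted p = 1.0, two-sided exact permutation p = 0.1). Wars and Slc3a2 were the 2 of 37 members whose groups did not overlap, beside 4.32% of all genes tested, and both lay lower in cKO, as did 1.77% of all genes.

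The other synthetases named by the rule had overlapping groups. Mars (methionyl) was at 73.1 ± 3.39 CPM in cKO and 69.5 ± 8.07 CPM in WT (SD, n = 3 each). Its exons overlap the other Ddit3 model on the opposite strand, and not the Ddit3 row given here. Yars (tyrosyl) was at 54.8 ± 4.21 CPM in cKO and 52.3 ± 1.89 CPM in WT, and Cars (cysteinyl) at 39.2 ± 0.870 CPM in cKO and 37.9 ± 3.01 CPM in WT (SD, n = 3 each). Gars (glycyl) was at 98.3 ± 13.4 CPM in cKO and 99.6 ± 13.9 CPM in WT (SD, n = 3 each), a spread far larger than the difference. Per kilobase of exon, Vars and Gars were the most abundant synthetases. Vars was at 34.9 ± 1.201 CPM per kb in cKO and 33.0 ± 4.35 CPM per kb in WT, and Gars at 31.5 ± 4.30 CPM per kb in cKO and 31.9 ± 4.47 CPM per kb in WT (SD, n = 3 each), so this pair did not differ beyond its spread. Cars was the least abundant, at 5.96 ± 0.132 CPM per kb in cKO and 5.75 ± 0.457 CPM per kb in WT. These levels divide by all exon bases of a gene. With the longest transcript as the length, Eprs moved from rank 28 to 15 of 37 and Qars from 17 to 8, so this order depends on the length used. With that length Atf4 ranked 2 behind the Ddit3 row, which moved from rank 18 to 1. The longest transcript of that gene model has only 105 bases, against 1713 deposited exon bases. Rank 1 of this row thus comes from the short length and is no measure of the level of the CHOP transcript. Kars, at rank 5 by longest transcript, stood above Gars, at 6.

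The synthetases varied together across libraries without regard to genotype. In 15 of 18 (83.3%) the highest pair of libraries was cKO 2 and WT 1, beside 25.4% of all genes tested and 62.2% (23) of all 37 members. The exceptions were Sars, Wars and Yars. The lowest library was cKO 3 or WT 3 in all 18, 9 each, beside 39.6% of all genes. The mean log2 deviation of the 18 from their 6-library mean was -0.0091, 0.13 and -0.11 in cKO libraries 1, 2 and 3, against 0.15, -0.043 and -0.13 in WT libraries 1, 2 and 3. The synthesis enzymes spread further, again highest in WT 1 and cKO 2, at -0.067, 0.31 and -0.24 in cKO, against 0.36, -0.18 and -0.18 in WT. For the synthetases the difference of the group means of these deviations was 0.0094, beside a pooled SD within groups of 0.13. Genes share their libraries, so the members are not independent instances of this pattern, and it was noticed in these data.

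**Figure D3:**
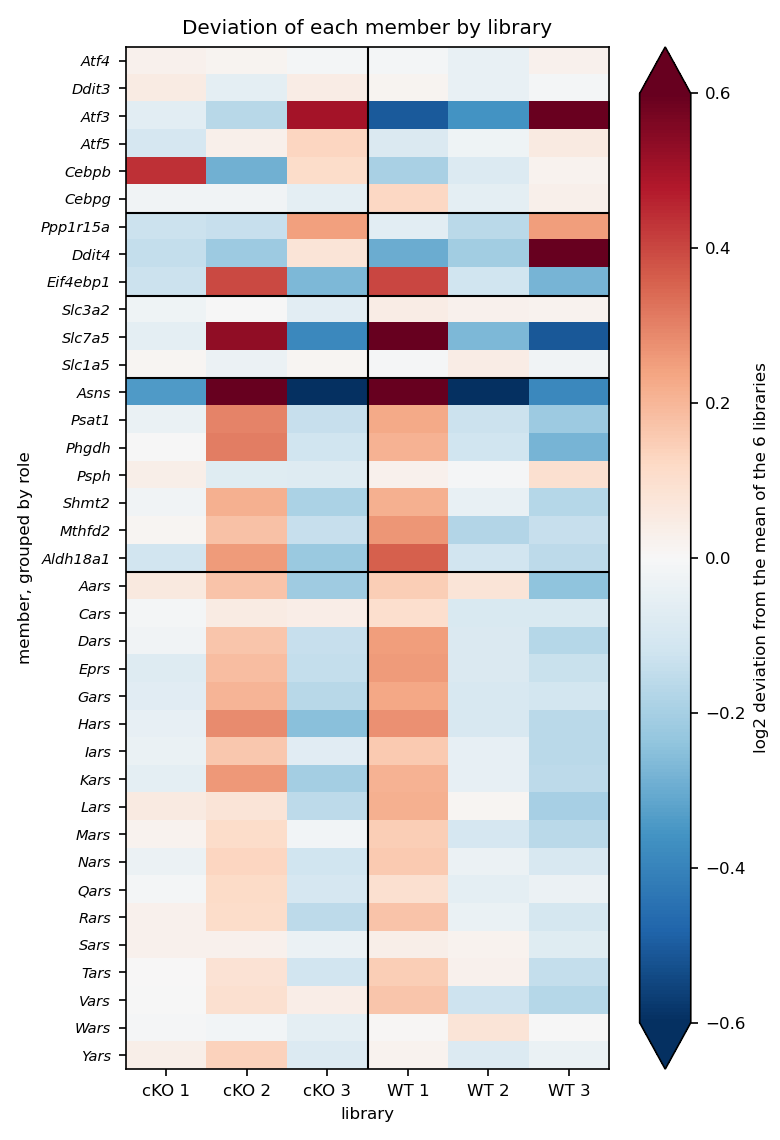
Log2 deviation of each member (rows, grouped by role) from its mean over the 6 libraries (columns), on the log2(CPM + 0.5) scale, with red above and blue below and colours saturating at the ends of the bar. The columns cKO 2 and WT 1 are red for most enzymes and synthetases, while Atf4, Slc3a2 and Slc1a5 are pale throughout.

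Other measures moved with the same pair of libraries. Mki67, a marker of dividing cells, was at 237, 370 and 266 CPM in cKO libraries 1, 2 and 3, against 388, 262 and 257 CPM in WT libraries 1, 2 and 3. The mitotic cyclin gene Ccnb1 was at 12.7, 26.2 and 9.55 CPM in cKO and 29.1, 12.3 and 11.3 CPM in WT, and Myc at 91.9, 127 and 87.1 CPM in cKO and 124, 85.9 and 90.7 CPM in WT. The choice of these 3 genes was made with their values in view. The erythroid markers, 6 of 7 listed, summed to 182, 377 and 144 CPM in cKO and 388, 135 and 119 CPM in WT, most of it from Car1. The haemoglobin gene Hba-a1 was at 5.91 to 10.6 CPM in cKO and 6.54 to 11.5 CPM in WT. The gene with the most reads, Gm26917, which overlaps a ribosomal RNA repeat, took 5.52%, 6.03% and 5.41% of reads in cKO and 5.86%, 5.16% and 4.65% in WT. The sum of B cell markers did not follow this order, being highest in cKO libraries 1 and 3. The part of cell division, cell mixture or ribosomal RNA in the pattern was not tested.

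Synthetases with and without the response element had overlapping spans. The 5 synthetases with TGATGNAA in the window had a median span of 1.26-fold between the highest and lowest library (1.17 to 1.33), and the 5 with a window but no core had 1.32-fold (1.08 to 1.38). Their median log2 fold changes were 0.012 and 0.00022. Of the 7 listed members with the core, 4 had a higher mean in cKO, and of the 19 with a window and no core, 11 did.

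Pathway genes outside the 37 did not pass the test either. Of the scaffold proteins of the multi-synthetase complex and the phenylalanyl synthetase, 3 of 5 had a higher mean in cKO and 0 passed. Its gene of smallest p, Farsa, was at 62.9 ± 5.36 CPM in cKO and 58.9 ± 3.55 CPM in WT (SD, n = 3 each). Of the 17 mitochondrial synthetases 14 (82.4%) had a higher mean in cKO, beside 55.5% of all genes tested. Their median log2 fold change was 0.038, and 0 passed (limma). The share of all genes depends on the scaling. It was 44.9% under quantile normalization and 59.8% without the ribosomal RNA repeat genes. Ears2, the mitochondrial glutamyl synthetase, was at 9.90 ± 0.681 CPM in cKO and 8.63 ± 1.19 CPM in WT (limma, adjusted p = 1.0). Among 14 listed genes of eIF2 and its kinases and phosphatase, 5 were higher, 9 were lower and 0 passed. Eif2ak4, which encodes GCN2, was at 39.9, 39.7 and 37.9 CPM in cKO and 39.3, 37.5 and 29.7 CPM in WT. Eif2ak3, the gene of PERK, chosen after its values were seen, was at 51.3 ± 6.02 CPM in cKO and 48.8 ± 2.98 CPM in WT (SD, n = 3 each).

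Of 19 further ATF4 response genes 10 were listed, 4 higher and 6 lower in cKO, and 0 passed. Sesn2 had the smallest p of all pathway genes examined. It encodes Sestrin 2, a leucine sensor that restrains mTORC1 and is induced by ATF4 and by p53. It was at 21.9, 21.7 and 19.7 CPM in cKO libraries 1, 2 and 3, against 18.9, 18.9 and 17.7 CPM in WT libraries 1, 2 and 3. All cKO libraries lay above all WT libraries, as in 2.55% of all genes tested, with a log2 fold change of 0.18 (95% confidence interval -0.0047 to 0.37, limma unadjusted p = 0.0544 and adjusted p = 1.0). Sqstm1, the gene of the autophagy receptor p62, was the other gene of this list whose groups did not overlap, and it was lower in cKO. It averaged 207 ± 3.63 CPM in cKO and 215 ± 4.03 CPM in WT (SD, n = 3 each; limma, adjusted p = 1.0). Among 12 listed folate and serine enzymes, 9 were higher (75%, beside 55.5% of all genes tested), 3 were lower and 0 passed. Shmt1, the cytosolic partner of Shmt2, was at 6.64 ± 0.853 CPM in cKO and 5.68 ± 1.27 CPM in WT (SD, n = 3 each). Mthfd1, also chosen after its values were seen, showed the library pattern of Asns, at 67.5, 121 and 55.7 CPM in cKO and 130, 56.8 and 57.4 CPM in WT. In 9 of the 12, Mthfd1 among them, the highest pair of libraries was cKO 2 and WT 1, beside 25.4% of all genes tested. Some of these had much narrower spans, such as Mtr at 1.24-fold.

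**Figure D4:**
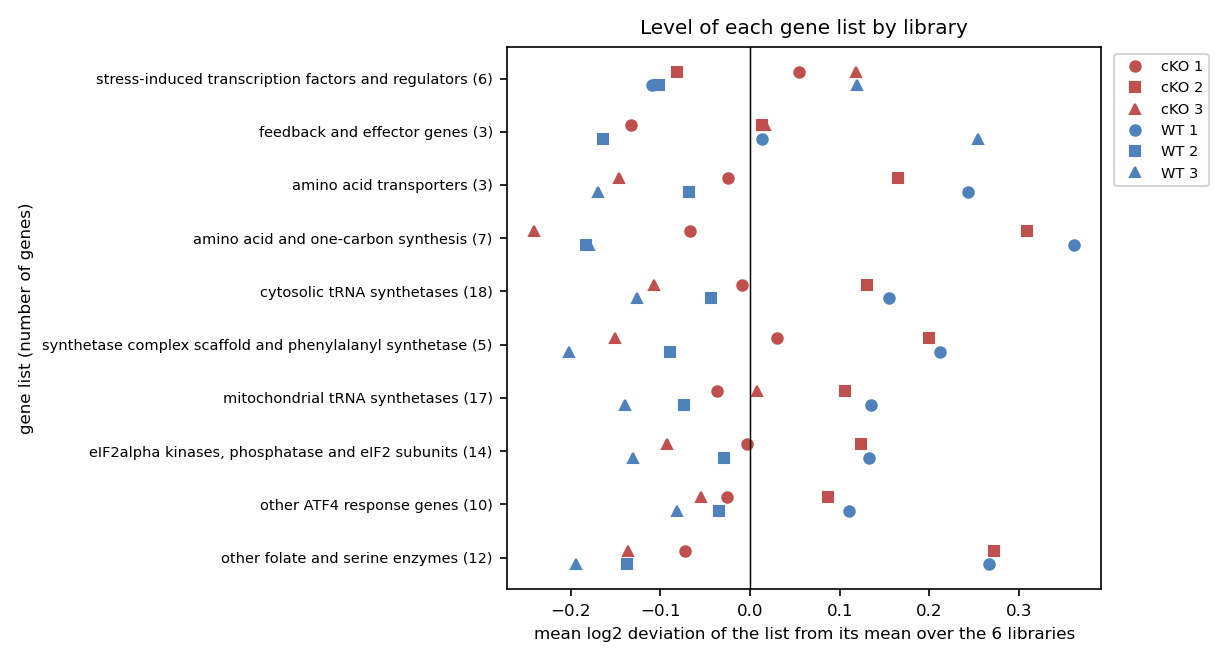
Mean log2 deviation of each gene list from its mean over the 6 libraries (x axis) for the 5 role groups of members and 5 further lists (y axis, number of genes in brackets), 1 point per library, cKO red and WT blue, the shapes marking library numbers. In 8 of the 10 lists cKO 2 and WT 1 are the points farthest right, and red and blue overlap in every list.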

How the data were processed

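NK cell RNA was isolated with RNeasy columns, made into KAPA Hyper Prep libraries and sequenced as single reads of 50 bases on a HiSeq2500, per the labels' protocols. The submitters' processing notes name HISAT2, HTSeq, DESeq2 and build mm10, without versions. The deposited values, called RPKM by the authors, are CPM: each column summed to 1000000, and 100% of values were whole multiples of 1 read within 0.01 reads. Strand use is not given in the sources used here. Exons of Atf5, Cebpb, Ppp1r15a, Psph, Shmt2, Hars, Mars and Yars overlap those of a listed or protein-coding gene on the opposite strand. Exons of the Ddit3 row, Cebpg and Aars overlap such a gene on the same strand. The effect of these overlaps on the values was not tested. The deposited exon length of each gene, in bases, was used only for levels per kilobase.

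The 11343 genes reaching 1 CPM in 3 or more of the 6 libraries entered a two-sided limma test (3.58.1, R 4.3.3, trended prior variance) of log2(CPM + 0.5). Benjamini-Hochberg adjustment covered every gene tested, at a threshold of 0.05. Such fold changes understate changes of low genes. Recovered reads were tested with edgeR 4.0.16 and DESeq2 1.42.0. The tests were tried on simulated data. Other pseudocounts (0.1 and 1), filters, scalings, no trend, a replicate block and leaving out libraries were alternatives, and leaving out both cKO 2 and WT 1 was added after the values were seen. Replicates differed by more than sampling noise in every pair (chi-square over its degrees of freedom, 16.8 or more). Coordinates are from GENCODE M21, matched by identifier and version for all 37 members. The promoter sequence of 1 further synthetase is not reported here.

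The members and lists were chosen with earlier results of these data known. Named genes were Atf4, Ddit3 and Asns, the 6 of smallest p in each direction, the 2 of smallest p and the 2 of highest level per length in each role group, members whose groups do not overlap, and the gene of smallest p in each further list. Other members given with CPM values are Eif4ebp1, Slc7a5, Psat1 and Mthfd2, which were highest in cKO 2 and WT 1. Atf3 and Atf5 are given too, and were highest in cKO 3 and WT 3. Plasma cell, T cell, dendritic cell and neutrophil markers were also summed. They came to 177 to 210, 71.8 to 123, 772 to 809 and 112 to 151 CPM in cKO and 181 to 199, 56.6 to 134, 809 to 955 and 98.9 to 125 CPM in WT.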

Additional observations from a re-analysis of the deposited data

How the results depend on the processing

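No member passed the threshold under any of the alternatives run, and 0 genes passed over the whole table, except that DESeq2 called 6, none a member. Without single libraries the count of members higher in cKO ran from 12 (without WT library 3) to 29 (without WT library 1), and was 22 with cKO 2 and WT 1 both left out. Under median ratios and quantile normalization it was 15, under edgeR 14 and under DESeq2 13, as the median of all genes moved to between -0.0082 and -0.0034. Without single libraries the median of all members ran from -0.061 to 0.091, of synthetases from -0.071 to 0.092, of synthesis enzymes from -0.058 to 0.18, and of feedback genes from -0.14 to 0.11. For transporters it ran from -0.073 to -0.016, and for transcription factors from -0.0045 to 0.056.

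Signs were compared only for the members named by the rule, so turns of other members are not listed here. Among the named members, signs turned for Shmt2 under quantile normalization (-0.0073), median ratios (-0.010), edgeR (-0.0086) and DESeq2 (-0.0091). They also turned for Ddit3 under quantile normalization (-0.0033), and for Ppp1r15a with cKO 2 and WT 1 both left out (0.015). Without single libraries they also turned for Asns (-0.62 to 0.49), Cebpb (-0.0060 to 0.36), Ppp1r15a (-0.14 to 0.11), Ddit4 (-0.39 to 0.16), Slc1a5 (-0.022 to 0.0099), Shmt2 (-0.10 to 0.11), Aldh18a1 (-0.20 to 0.11) and Gars (-0.12 to 0.094). The cause was not tested.

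The labels tie same-numbered libraries of the 2 groups by nothing but the number. The correlations of their deviations from the group means were -0.169, -0.506 and 0.482 for numbers 1, 2 and 3. Only number 3 correlated best with its own. The highest values of the others were 0.647 for cKO 1 with WT 2 and 0.586 for cKO 2 with WT 1. With the replicate block 0 genes passed, as without it, and 118 genes had an unadjusted p under 0.05, against 133. The block follows the library numbers, so it does not pair cKO 1 with WT 2 or cKO 2 with WT 1. It therefore cannot show what a block by those pairs would give. With cKO 2 and WT 1 both left out, 0 genes passed, but 467 of 11343 had an unadjusted p under 0.05. Of the 37 members only Vars was among them (limma, unadjusted p = 0.0216, adjusted p = 0.9996). With 3 libraries per group, the median standard error over members was 0.118 on the log2 scale, and 0.627 for Asns.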
